A study of Mus musculus with 6 samples.

Results

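The renin-angiotensin and endothelin systems are peptide hormone systems that contract arteries, and 9 of their genes were followed in ATAC-seq, an assay in which the Tn5 transposase inserts into accessible DNA. The genes were Agt, Ace, Agtr1a, Agtr1b, Agtr2 and Mas1 of the angiotensin system and Edn1, Ednra and Ednrb of the endothelin system. Every peak that overlapped one of these genes or the 20 kb on each side of it was taken, and peaks of different libraries that shared at least 1 base were merged. This gave 24 regions of 85174 in the whole data set, for 9 of 21887 protein-coding genes. On mm10, counted from 1, the genes lie on chromosome 8 at 124556587 to 124569706 (Agt) and 77663029 to 77724452 (Ednra), on chromosome 13 at 30336356 to 30382867 (Agtr1a) and 42301476 to 42307990 (Edn1), and on chromosome 3 at 20314473 to 20367177 (Agtr1b). Agtr2 lies on chromosome X at 21484624 to 21488833, Ace on chromosome 11 at 105967948 to 105989964, Mas1 on chromosome 17 at 12838841 to 12868150 and Ednrb on chromosome 14 at 103814615 to 103844508. The cells were mouse vascular smooth muscle cells in primary culture. The knockdown group held 3 libraries of cells given siRNA against Arid3a, a transcription factor gene with an AT-rich interaction domain, each library with a different siRNA (si-Arid3a#1, si-Arid3a#2 and si-Arid3a#3). The control group held 3 libraries of cells given a negative control. Age, sex and strain of the donor animals are not stated in the labels, cells were kept for 24 h after transfection, and 50000 cells went into each assay. The assay does not measure RNA, so neither the loss of Arid3a nor the expression of the 9 genes is known from these libraries. The labels also mention exposure to angiotensin II and do not say for which libraries, so whether any library was exposed to this ligand of the genes studied here was not known. The labels do not tell whether replicates were separate cultures, so the spread between libraries may be largely technical. In the knockdown group it also holds any difference between the 3 siRNAs, which cannot be told apart from the spread of replicates. The p-values below cover only this spread.

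In the angiotensin system, the precursor angiotensinogen (Agt) is cut by renin and then by angiotensin-converting enzyme (Ace) to the peptide angiotensin II. Its type 1 receptor, present in rodents as the paralogs Agtr1a and Agtr1b, raises calcium through Gq proteins and contracts smooth muscle, the type 2 receptor (Agtr2) largely opposes it, and Mas1 is the receptor of a shorter, dilating angiotensin peptide. Endothelin-1 (Edn1) is made mainly by endothelium and contracts smooth muscle through the type A receptor (Ednra), while the type B receptor (Ednrb) is best known from endothelium and neural crest derivatives.

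Of the member promoters with a sequence in the reference table, which has none for Agtr1a, only those of Edn1 and Ednra had a peak. Both had fewer CpG dinucleotides than the lower quartile, 16, of promoters open in every library. For promoters with a peak in 1 to 5 libraries, the class of both, the lower quartile was 9. The 250 bases before the annotated start are shown for the Edn1 and Ednra promoters and for 3 that had no peak in any library. These 3 are Ace, which is rich in CpG, Ednrb, and Agtr2, which is AT-rich. For Ednrb the start in the reference table lies inside the gene range given above, which ends at 103844508. Its printed bases therefore lie within that range and not before it. CpG dinucleotides are in capitals, all sequences run 5′ to 3′ on the strand of the gene, and they come from RefSeq on GRCm38.p6, the assembly also called mm10. Edn1 is shown at chr13:42301226-42301475 (plus strand), Ednra at chr8:77724453-77724702 (minus strand), Ace at chr11:105967698-105967947 (plus strand), Ednrb at chr14:103843702-103843951 (minus strand) and Agtr2 at chrX:21484374-21484623 (plus strand).
Edn1: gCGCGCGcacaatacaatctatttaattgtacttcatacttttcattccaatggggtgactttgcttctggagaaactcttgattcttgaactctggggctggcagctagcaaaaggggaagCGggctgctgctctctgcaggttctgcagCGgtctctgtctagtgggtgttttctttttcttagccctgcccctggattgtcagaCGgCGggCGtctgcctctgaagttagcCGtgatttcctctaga
Ednra: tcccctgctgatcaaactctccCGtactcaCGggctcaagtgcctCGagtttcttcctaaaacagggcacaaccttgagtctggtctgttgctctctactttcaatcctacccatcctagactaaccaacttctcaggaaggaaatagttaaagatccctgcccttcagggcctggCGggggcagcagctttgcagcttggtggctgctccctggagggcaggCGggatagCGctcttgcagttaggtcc
Ace: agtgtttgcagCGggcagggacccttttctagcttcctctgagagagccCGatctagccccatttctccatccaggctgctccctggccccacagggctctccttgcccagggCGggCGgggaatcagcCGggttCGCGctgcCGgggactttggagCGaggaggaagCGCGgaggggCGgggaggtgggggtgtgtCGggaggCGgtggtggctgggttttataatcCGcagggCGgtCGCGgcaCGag
Ednrb: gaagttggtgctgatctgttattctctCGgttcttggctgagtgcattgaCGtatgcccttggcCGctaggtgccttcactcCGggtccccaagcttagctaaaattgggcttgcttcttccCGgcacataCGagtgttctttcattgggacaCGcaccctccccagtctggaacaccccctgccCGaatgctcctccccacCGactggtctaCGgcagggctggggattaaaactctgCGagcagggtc
Agtr2: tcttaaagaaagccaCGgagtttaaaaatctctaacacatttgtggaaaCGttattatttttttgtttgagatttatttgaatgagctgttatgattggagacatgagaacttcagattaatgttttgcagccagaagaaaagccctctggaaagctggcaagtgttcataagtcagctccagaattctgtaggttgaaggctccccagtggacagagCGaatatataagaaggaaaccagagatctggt
All 250 printed bases of Edn1 lay in its merged region, and 137 of the 250 of Ednra did. The printed stretch held 9 CpG in Edn1, 6 in Ednra, 19 in Ace, 11 in Ednrb and 3 in Agtr2. Over the whole 300-base promoter of the reference table, which adds 50 bases after the start, the CpG number was 11 in Edn1, 8 in Ednra, 29 in Ace, 15 in Ednrb and 5 in Agtr2.

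Over all 32851 mouse promoters of that table, 21.2% had a peak in 6 of 6 libraries, with a median of 22 CpG, and 61.0% had a peak in 0 of 6, with a median of 4 CpG. The other 17.8% had a peak in 1 to 5 libraries, with a median of 19 CpG and quartiles of 9 and 29. The Edn1 and Ednra promoters, open in 5 and 4 libraries, belong to this last class. Edn1 lay between its quartiles and Ednra, with 8 CpG, just under the lower one. Both lay below the median of the promoters open everywhere. Of the 588 promoters with exactly 11 CpG, as in Edn1, 49.3% had a peak in at least 1 library, and of the 942 with 8 CpG, as in Ednra, 27.7% did. The Ace promoter went the other way. Of the 4248 promoters with at least 29 CpG, 44.7% had a peak in 6 of 6 libraries and 19.7% in 0 of 6, and Ace was among those with none. The remaining member promoters had 5 CpG (Agtr1b), 2 (Mas1 and the internal promoter of Ace, which in mammals serves the testis form of the enzyme) and 1 (Agt), and had no peak in any library. The table gave 9 promoters for 8 of the 9 genes, with 2 for Ace, and Agtr1a was not used here.

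**Figure D1:**
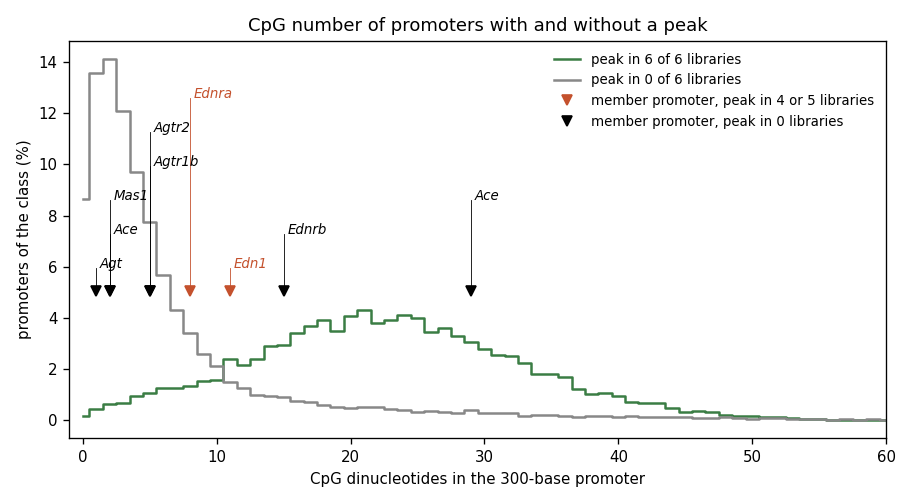
Share of promoters (y axis, percent of the class) by the number of CpG dinucleotides in the 300-base promoter (x axis), for promoters with a peak in 6 of 6 libraries (green) and in 0 of 6 (grey). Triangles mark the 9 member promoters. Edn1 (11 CpG) and Ednra (8 CpG), in red, had a peak, while Ace (29 CpG) and Ednrb (15 CpG), in black, had none.

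A search of both strands of the 300-base promoters gave few matches to short motifs. The letters ATTAAA, one form of the ARID3A motif, occurred in 13.9% of all promoters and in those of Edn1, 229 bases before the start on the reverse strand, and Ednrb, 23 bases before the start. The other form, ATCAAA, occurred in 11.9% of all promoters and in that of Ednra, 240 bases before the start. The Edn1 promoter also held TTATC (GATA factors; 25.4% of all promoters) 9 bases after the start, ACGTG (hypoxia response; 19.6%) on the reverse strand at 22 bases, and TGACTAA (AP-1; 2.35%) at 37 bases. In the human gene, GATA and AP-1 factors are known to act on sites of this kind close to the start. Whether the matches here correspond in position to those sites was not known. TGACTAA was also in the Agtr1b promoter, which had no peak, 138 bases before the start on the reverse strand. TATAAA (13.6% of all promoters) began 31 bases before the start in Ace, on the reverse strand, and in Agtr1b, and 30 bases before it in Agt. The AP-1 letters TGANTCA (7.81%) and the CArG box of serum response factor (1.63%) were in none of the 9 member promoters. Matches of this kind are a description of the letters and not of bound sites.

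At Edn1, whose product is the endothelin-1 peptide, 4 regions were found, and none was called in control replicate 2. The region over the start lay on chromosome 13 at 42301218 to 42301723, exon and UTR not told apart. Fold enrichment is the authors' ratio of the summit to its local background in that library, with 1 added to both numbers. At few tags this addition lowers the value. At this region fold enrichment was 4.78, 5.37 and 3.40 in knockdown replicates 1 to 3. It was 5.58 and 6.76 in control replicates 1 and 3. The 2 control libraries with a peak were thus above all 3 knockdown libraries. The lowest value was that of knockdown replicate 3, whose median over all peaks was 5.96, against 6.89 and 6.76 in control replicates 1 and 3. Knockdown replicates 1 and 2, with medians of 6.94 and 6.95, were also below both control libraries at this region. Peak summits lay 11, 29 and 66 bases after the annotated start in knockdown replicates 1 to 3, 27 bases after it in control replicate 1 and 90 bases before it in control replicate 3. The peaks rested on 7, 7 and 4 tags at the summit in the knockdown libraries and on 9 and 11 tags in those control libraries, so their precision is low.

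A region 15.2 kb upstream of Edn1 (42285947 to 42286255) showed the same order. Fold enrichment was 7.30, 4.10 and 6.40 in knockdown replicates 1 to 3 and 9.50 and 9.93 in control replicates 1 and 3. The groups did not overlap among the libraries with a peak. A further region, inside the gene near its 3′ end (42306940 to 42307293), went the other way in calls, with a peak in 3 of 3 knockdown libraries and in 1 of 3 control libraries. Its fold enrichment was 6.35, 7.31 and 5.56 in knockdown replicates 1 to 3 and 5.55 in control replicate 3. The fourth, 2.60 kb beyond the gene, was called in knockdown replicate 1 alone, at 5.02.

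At Ednra, the type A endothelin receptor of smooth muscle, 6 regions were found, the most of any of the 9 genes, and again none was called in control replicate 2. The region over the start (chromosome 8, 77723750 to 77724589) had a fold enrichment of 6.59, 5.91 and 6.71 in knockdown replicates 1 to 3. In control replicates 1 and 3 it was 4.98 and 4.74. Here the knockdown libraries were all above the control libraries with a peak, the reverse of the order at the Edn1 start. Summits lay 191, 250 and 10 bases after the start in knockdown replicates 1 to 3 and 250 and 188 bases after it in control replicates 1 and 3, so most of the open stretch lay just inside the gene. The peak of control replicate 1 ended before the 300-base promoter, which is why 4 libraries and not 5 had a peak in that window. The tags at the summit were 7 in each knockdown library and 5 in each of the control libraries with a peak. Control replicate 3 had a further peak in this region, and the values given are those of its peak with the higher fold enrichment.

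Of the other 5 Ednra regions, 3 lay outside the gene, at both sides of it, and 2 inside it. The one 2.96 kb beyond the 3′ end (77659676 to 77660068) had a fold enrichment of 7.08, 8.55 and 4.83 in knockdown replicates 1 to 3 and of 7.17 and 5.68 in control replicates 1 and 3, with overlapping groups. The one 13 kb upstream (77737439 to 77737714), with the highest median of the window, had 9.03 and 5.92 in knockdown replicates 2 and 3 and 8.85 and 8.19 in control replicates 1 and 3. The one 14.5 kb upstream was called in knockdown replicates 1 and 3 alone, at 4.64 and 4.60. Regions well inside the gene were each called in 1 library, at 5.69 in knockdown replicate 1 and at 5.04 in control replicate 3.

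Ednrb, the type B receptor, had no region inside the gene or within 20 kb of it in any library. The nearest region of any kind lay 95.1 kb away and the nearest one present in 6 of 6 libraries 170 kb away.

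Among the angiotensin receptors, Agtr1a carried weak and scattered peaks and Agtr1b and Agtr2 none. Of the 3 regions of Agtr1a, all inside the gene, that at the lower-coordinate end (chromosome 13, 30336215 to 30336794) was called in knockdown replicate 2, at a fold enrichment of 4.16, and in control replicate 1, at 4.98. A second (30358710 to 30359036) was called in knockdown replicate 3 alone, at 3.56. The last (30368831 to 30369028) had 4.29 in knockdown replicate 1 and 4.15 in control replicate 3. These peaks held 3 to 5 tags at the summit, and no library but control replicate 2, which had 0, had more or fewer than 1 of the 3 regions.

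Agtr1b had its nearest region 32.1 kb away, and that region was present in 6 of 6 libraries. Agtr2, on chromosome X, had its nearest region 200 kb away and its nearest region in 6 of 6 libraries 522 kb away. Agtr1a and Agtr1b have similar coding sequences, and the placing of reads with several matches was not known here, which leaves a missing peak at these genes uncertain. With Ednrb, 3 of the 9 genes thus had no region in the window, against 19.0% of all protein-coding genes.

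Mas1 had 4 regions, all outside the gene, and held 2 of the 4 member regions that were present in 6 of 6 libraries. The stronger one lay 6.06 kb beyond the 3′ end (chromosome 17, 12832163 to 12832779), with a fold enrichment of 12.8, 12.4 and 6.15 in knockdown replicates 1 to 3 and 13.5, 8.47 and 17.1 in control replicates 1 to 3. The groups overlapped, at 10.5 ± 3.74 in knockdown and 13 ± 4.35 in control libraries (SD, n = 3 each). The other lay 11.6 kb upstream (12879747 to 12880651), nearer to Mrgprh, and had 7.70, 9.55 and 5.69 in knockdown replicates 1 to 3 and 8.91, 6.69 and 11.9 in control replicates 1 to 3, again with overlap. Its summits were nearly fixed, between 12174 and 12195 bases before the annotated gene start in all 6 libraries. The 2 remaining regions, 2.72 and 2.93 kb upstream, were called in 1 knockdown library each, at 3.86 and 4.15.

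Ace, the converting enzyme, had its strongest open regions upstream and away from its own promoter. The region 14.1 kb upstream (chromosome 11, 105953260 to 105953821) had the highest fold enrichment of the 24, at 15.3, 18.5 and 13.1 in knockdown replicates 1 to 3 and 13.2, 11.3 and 13 in control replicates 1 to 3. The groups overlapped slightly, with means of 15.6 ± 2.69 in knockdown and 12.5 ± 1.05 in control libraries (SD, n = 3 each). A region 19.3 kb upstream (105948221 to 105948693) had 10.2, 13.4 and 8.43 in knockdown replicates 1 to 3 and 9.53 and 10.2 in control replicates 1 and 3. Both lay nearer to Cyb561, at 8.52 and 3.44 kb, than to Ace. Inside Ace, 1 region (105984515 to 105984760) was called in knockdown replicates 1 and 2 alone, at 4.01 and 5.09, and 1 (105969553 to 105969801) in knockdown replicate 3, at 4.98, and control replicate 1, at 4.31.

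Agt, the angiotensinogen gene, had 3 regions, all upstream of its start. The region 2.06 kb upstream (chromosome 8, 124571771 to 124572165) had a fold enrichment of 5.07, 7.45 and 5.24 in knockdown replicates 1 to 3 and 8.01 and 8.44 in control replicates 1 and 3. All knockdown libraries were below the control libraries with a peak. The region 3.89 kb upstream (124573594 to 124574352) was counted in 6 of 6 libraries, with 5.72, 6.57 and 5.89 in knockdown replicates 1 to 3 and 4.87, 3.99 and 4.63 in control replicates 1 to 3. This was 6.06 ± 0.448 in knockdown and 4.50 ± 0.457 in control libraries (SD, n = 3 each), without overlap, but the peaks did not mark 1 common site. Summits lay 4441 and 4467 bases before the start in knockdown replicates 1 and 3, 4008 bases before it in knockdown replicate 2 and control replicate 1, and 4285 and 4116 bases before it in control replicates 2 and 3, and the peaks were chained into 1 region by their edges. It is also nearer to Capn9 than to Agt. The last region, inside Capn9, was called in control replicate 1 alone, at 4.15.

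**Figure D2:**
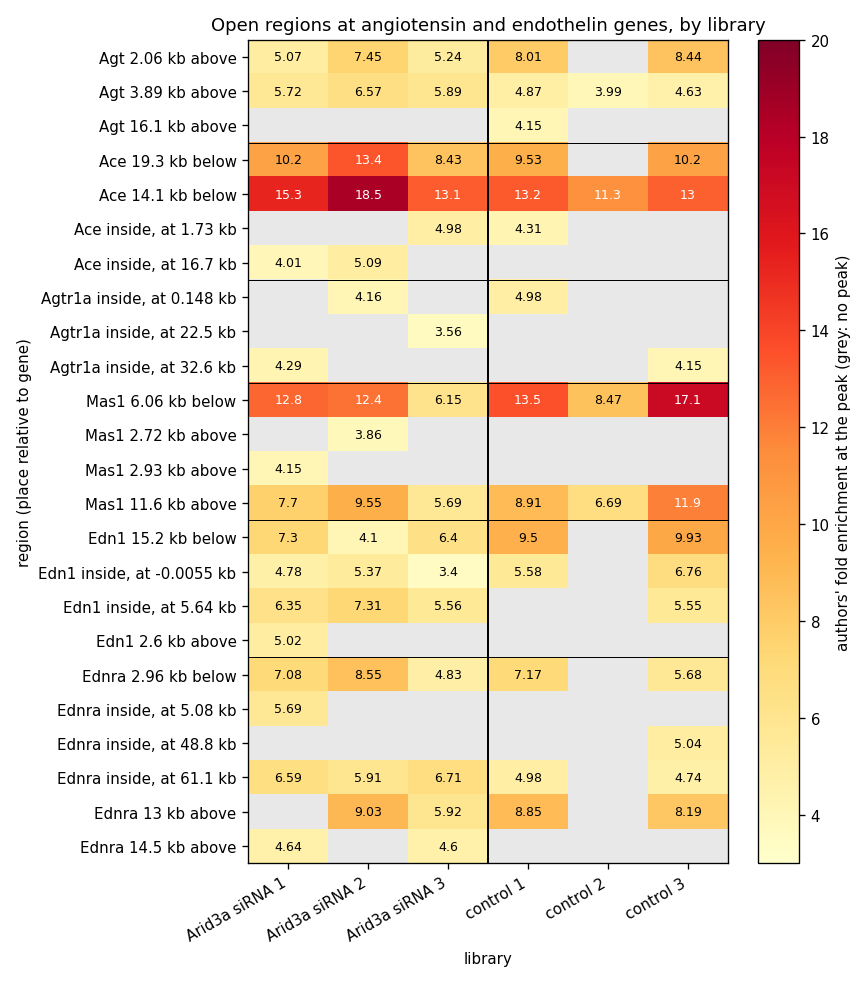
The authors' fold enrichment (colour and number) of each of the 24 regions (rows, grouped by gene) in the 3 Arid3a siRNA and the 3 control libraries (columns), with grey where no peak was called. Distances outside a gene are to its nearer end, places inside it are counted from its lower-coordinate end, and below and above refer to coordinates. Control replicate 2 had a peak in 4 of the rows, and the highest value was 18.5, upstream of Ace in knockdown replicate 2.

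**Figure D3:**
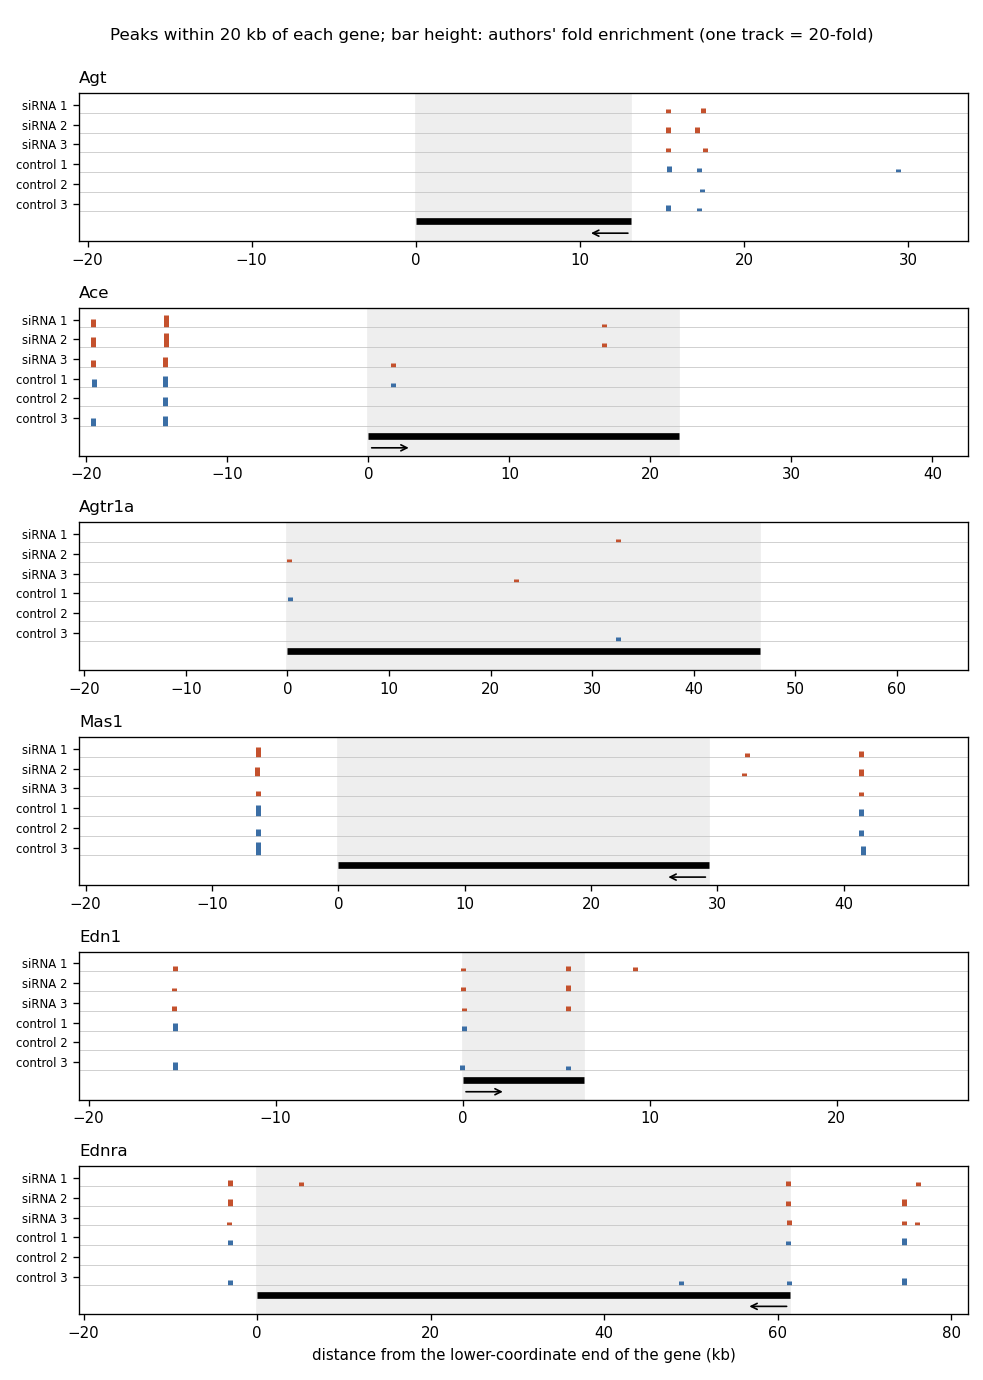
Position of each peak (x axis, kb from the lower-coordinate end of the gene) in the 6 libraries (tracks, Arid3a siRNA in red above control in blue) at the 6 genes with any region, where bar height is the authors' fold enrichment, the grey band is the gene and arrows show the direction of transcription where the reference table gave it. Peaks lay at the start of Edn1 and Ednra, while the regions called in 6 of 6 libraries lay outside Agt, Ace and Mas1. The one at Agt was chained from peaks that did not mark a common site.

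No member region was called in all libraries of 1 group and in none of the other. Of the 24 regions, 0 were called in 3 of 3 knockdown and 0 of 3 control libraries, against 0.432% of all regions, and 0 in 3 of 3 control and 0 of 3 knockdown libraries, against 0.277%. At these shares fewer than 1 region in 24 would be called, so a count of 0 says little about the members. In this design a single region has a smallest exact permutation p of 0.1. Control replicate 2 called 4 of the 24 regions, each of them called in all libraries, so none had 3 control libraries and 1 knockdown library. The 3 member regions that were 1 library short of a call in 1 group alone were all on the knockdown side, which was not tested. They were the 3′ region of Edn1, with 3 knockdown libraries and 1 control library, a pattern of 1.72% of all regions, and the region 14.5 kb upstream of Ednra and 1 inside Ace, each with 2 knockdown libraries and 0 control libraries, a pattern of 2.56%. When peaks under a −log10 q of 5 were dropped, the start region of Ednra was called in 3 of 3 knockdown and 0 of 3 control libraries, since the −log10 q of its peaks was 7.26, 5.72 and 7.32 in knockdown replicates 1 to 3 and 4.55 and 3.95 in control replicates 1 and 3. At this threshold 0.314% of 54115 regions were called in this way. With lists of equal length, a region of Edn1 was called in knockdown libraries alone, as were 0.497% of 56512 regions. Among the 14 and 15 member regions of these settings each call was a single one that the other setting did not give, and neither was tested.

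The order of fold enrichment between the groups went both ways. Of the 4 regions present in 6 of 6 libraries, the values of knockdown libraries were all above those of control libraries in 1, the chained region upstream of Agt, against 4.0% of the 20742 regions of this kind in the whole data set, and all below in 0, against 1.71%. Of the 6 regions missing in control replicate 2 alone, all knockdown values were above both control values in 1 (the Ednra start), against 5.92% of 5190 such regions, and below both in 3 (the Edn1 start, the region 15.2 kb upstream of Edn1 and that 2.06 kb upstream of Agt), against 12.2%. Fold enrichments are scaled within a library, so these orders describe the deposited values and were not tested as change. Over all peaks the median fold enrichment was 6.94, 6.95 and 5.96 in knockdown replicates 1 to 3 and 6.89, 5.78 and 6.76 in control replicates 1 to 3. Where control replicate 2 had no peak, the control library with the lowest median was left out, while knockdown replicate 3 stayed in. How far this set the orders was not tested.

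Control replicate 2 stood apart from the other libraries and bears on each of these group comparisons. The lists held 50543, 51279 and 41629 peaks in knockdown replicates 1 to 3 and 51330, 33248 and 52091 in control replicates 1 to 3. The median peak held 8 tags at the summit in knockdown replicate 3 and control replicate 2 and 11 in the other 4 libraries. Control replicate 2 was present in 38.6% of all 85174 regions but in 16.7% of the member regions. Regions missing in this library alone made up 25.0% of the member regions (6 of 24) and 6.09% of all regions. How far depth set this was not tested.

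Knockdown libraries had more of the member regions than control libraries, and most of the difference went with control replicate 2. The 24 regions were called 17, 15 and 15 times in knockdown replicates 1 to 3 and 14, 4 and 14 times in control replicates 1 to 3. Every knockdown library was thus above every control library, with means of 15.7 ± 1.15 in knockdown and 10.7 ± 5.77 in control libraries (SD, n = 3 each), a difference of 5.00 regions (exact two-sided permutation p = 0.1, the smallest possible). Without control replicate 2 the difference was 1.67 regions. It was 2.00 regions with a −log10 q of 5 or more (exact permutation p = 0.7) and 3.33 with lists of equal length (exact permutation p = 0.3). The share of all peaks of a library that lay in the 9 windows was 0.0336%, 0.0293% and 0.0360% in knockdown replicates 1 to 3 and 0.0273%, 0.0120% and 0.0288% in control replicates 1 to 3. Its mean was 0.0330% ± 0.00344 in knockdown and 0.0227% ± 0.00927 in control libraries (SD, n = 3 each; exact two-sided permutation p = 0.1), a difference of 0.0103 percentage points that was 0.00494 without control replicate 2. The bases covered were 5070 ± 144 in knockdown and 3930 ± 1762 in control libraries (SD, n = 3 each; exact two-sided permutation p = 0.1), a difference of 1140 bases that was 123 bases without control replicate 2.

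**Figure D4:**
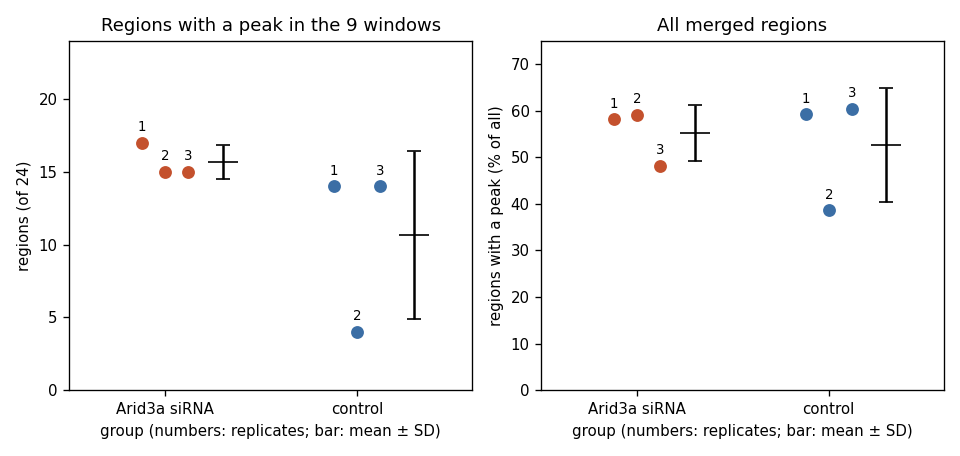
Number of the 24 member regions with a peak (left, y axis) and percent of all merged regions with a peak (right, y axis) in each Arid3a siRNA and control library, with the mean ± SD of each group (n = 3) beside the points. On the left the knockdown libraries (15 to 17 regions) lie above the control libraries (4 to 14 regions), while on the right the groups overlap and control replicate 2 is lowest at 38.6%.

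Gene by gene, 0 of the 9 genes had more regions in every knockdown than in every control library, against 0.932% of all protein-coding genes, and 0 had fewer, against 0.530%. Edn1 came to 4, 3 and 3 regions in knockdown replicates 1 to 3 and 2, 0 and 3 in control replicates 1 to 3, so that control replicate 3 equalled the lower knockdown libraries. Ednra came to 4, 3 and 4 in knockdown replicates 1 to 3 and 3, 0 and 4 in control replicates 1 to 3. Ace had 3 in each knockdown library and 3, 1 and 2 in control replicates 1 to 3. Mas1 had 3, 3 and 2 in knockdown replicates 1 to 3 and 2 in each control library. Agt, with 2 in each knockdown library and 3, 1 and 2 in control replicates 1 to 3, was the gene in which a control library had the most.

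The regions of the 9 genes that were called in every library, control replicate 2 included, lay outside the genes. Of the 24 regions, 10 lay inside a member gene and 14 in the flanks. Regions inside a gene were present in a median of 2 libraries and those in the flanks in a median of 5. None of the 10 inside a gene was present in 6 of 6 libraries. In all, 4 of 24 (16.7%) were present in 6 of 6 libraries, against 24.4% of all regions, and 7 (29.2%) in 1 library, against 33.5%. Of these 4, only the one beyond the 3′ end of Mas1 was nearest to the member gene itself. A region in 6 of 6 libraries lay in the window of 3 of the 9 genes (Agt, Ace and Mas1), against 62.6% of all protein-coding genes. That of Agt was the chained region, whose peaks did not mark 1 common site. When peaks had to cover at least 50% of a region, 3 member regions were present in 6 of 6 libraries. Control replicate 2 bounded these counts, since it called only 4 of the 24 regions. Without it, 9 member regions were called in all remaining libraries. The start regions of Edn1 and Ednra, which overlap the genes, were missing in control replicate 2 alone.

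Other genes of these systems stood near the whole data set. Of 29 further genes, 28 had at least 1 region in the window and 21 (72.4%) had one in 6 of 6 libraries, against 62.6% of all protein-coding genes. Of their 221 regions 54 (24.4%) were in 6 of 6 libraries, against 24.4% of all regions. By part, these were 11 of 61 regions of renin-angiotensin genes, 16 of 33 of endothelin genes and 27 of 127 of receptor signalling genes. Their median length was 26.4 kb, against 17.2 kb over all protein-coding genes, and longer genes have wider windows. Of the 9 member genes, Ednra, Agtr1b, Agtr1a, Ednrb and Mas1 were longer than 26.4 kb and Ace, Agt, Edn1 and Agtr2 shorter. How far length bears on these shares was not tested. The difference between the 29 genes and the 9 was not tested either. The 11 genes of receptor signalling all had one, among them Gnaq, a Gq protein subunit, with 3 of 19 regions in 6 of 6 libraries, Gna12 with 4 of 13, Gna13 with 3 of 11, the phospholipase genes Plcb1 with 3 of 37 and Plcb3 with 4 of 13, and the arrestin gene Arrb2 with 3 of 3. Of the 5 other endothelin genes, 3 had one. Ece1, the converting enzyme that makes active endothelin-1, had 10 of 19 regions in 6 of 6 libraries, and the related Ece2 had 4 of 8, while Edn3 had no region within 86.2 kb. Of 13 other renin-angiotensin genes 7 had one, for example Nln, a peptidase gene, with 3 of 12, while Ren1, the renin gene, had 0 of 5.

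Among the 221 regions of these 29 genes, 1 was called in knockdown libraries alone, against 0.432% of all regions, and 1 in control libraries alone, against 0.277%. A count of 1 in 221 is 0.452%, so both are given as a description. The first lay 17.1 kb upstream of Ece1 (chromosome 4, 137844624 to 137845117) with a fold enrichment of 5.69, 4.60 and 6.88 in knockdown replicates 1 to 3. The second lay 0.099 kb above Grk2 (chromosome 19, 4306321 to 4306594), a receptor kinase gene, with 6.20, 5.19 and 4.92 in control replicates 1 to 3. By the number of regions per library, the genes of this list most like Ednra were Arrb2, Grk2, Mme and Ren1, tied at a summed absolute difference of 6 regions over 6 libraries.

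Markers of cell types gave the setting. All 8 smooth muscle markers had a region in 6 of 6 libraries within 20 kb, but so did 6 of 7 endothelial and 4 of 4 fibroblast markers, so such regions did not tell these cell types apart. The same held for 2 of 5 leukocyte, 1 of 3 hepatocyte, 2 of 3 Schwann cell and melanocyte and 2 of 3 epithelial markers. Of the markers with a promoter sequence in the table, Acta2 and Smtn of 5 for smooth muscle had a promoter peak in 6 of 6 libraries, Cnn1 in 4, Lmod1 in 1 and Des in 0. Of 4 endothelial promoters none had a peak in 6 of 6 libraries, Kdr had one in 2, Tek in 1 and Tie1 and Emcn in 0. A promoter peak in 6 of 6 libraries was found for 0 of 2 fibroblast, 0 of 3 leukocyte, 0 of 2 hepatocyte and 0 of 2 epithelial markers. Among these the leukocyte marker Cd68 had a promoter peak in 5 libraries and the others in 0. Mitf, the only Schwann cell and melanocyte marker with a promoter sequence in the table, had one in 6 of 6 libraries. The part of endothelial cells in the Edn1 promoter peak was not tested.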

How the data were processed

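Each library was represented by 1 deposited list of peaks. Per the submitters' processing notes, Bowtie2, Picard and MACS2 were used with the build mm10. Not given in the sources used here were versions, parameters, duplicate handling, any Tn5 shift and the control of the peak caller. Kept duplicates would raise tags and peak calls, while a missing shift would move summits by a few bases. The authors deposited for each peak a fold enrichment, a −log10 p, a −log10 q and a score, which was not used. Fold enrichment is a ratio of the summit to local background within the library, with 1 added to both numbers. All of these are the authors' values, scaled within a library, and served to describe, rank or filter peaks. The lowest −log10 q was 1.30 to 1.32 per list. Depth is not stated. The whole number of tags at a summit was solved from fold and −log10 p under the Poisson model of MACS2 and matched within 0.001 for at least 99.996% of peaks per library.

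Peaks of 6 libraries were merged at 1 shared base with Python 3.11.15, pandas 2.3.3 and numpy 2.4.6, and merging, windows and tag recovery were checked on simulated data. Gene positions came from RefSeq on GRCm38.p6, which gave no exons, and strand came from the promoter table. Per-library values entered an exact two-sided permutation test over 20 relabellings (SciPy 1.17.1), knockdown minus control. Members and lists were chosen with earlier results of these data known. Regions given with values were those at gene ends, the one with the highest median fold per gene and those of 1 group only. The other member regions were described after their values were seen, as were the comparisons by CpG number and motif. Of the other pathway genes, those with a region of 1 group only and 8 with many regions in 6 of 6 libraries were named, and Edn3 and Ren1 were added after their values were seen. Alternatives were a 50% overlap, a −log10 q of 5, lists of equal length, other windows, assignment to the nearest gene, left-out libraries and a replicate block.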

Additional observations from a re-analysis of the deposited data

How the results depend on the processing

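The differences per library (number of regions, share of peaks and bases covered, knockdown minus control) kept their positive sign under all 14 alternatives each. For some of these the sign was largely fixed in advance. Every knockdown library was above every control library, so leaving libraries out could hardly reverse it. A replicate block leaves a difference of means unchanged. Of the 13 alternatives other than the replicate block, 6 for regions and 4 each for share and bases gave an exact permutation p above the smallest possible. For regions, share and bases it was 0.7, 0.3 and 1.0 with a −log10 q of 5 or more, 0.8, 0.5 and 0.8 with 50 kb flanks, 0.3, 0.3 and 0.5 with lists of equal length and 0.3, 0.2 and 0.2 in gene bodies. For regions alone it was 0.2 at a 50% overlap and 0.4 without knockdown replicate 2. Leaving out 1 library gave 1.67 to 6.67 regions, 0.00494 to 0.0133 percentage points and 123 to 1656 bases, each lowest without control replicate 2. With lists of equal length the difference was 3.33 regions and with a −log10 q of 5 or more 2.00 regions. With a replicate block (exact sign-flip permutation p = 0.25, the smallest 3 pairs allow) it remained 5.00 regions, 0.0103 percentage points and 1140 bases. Same-numbered libraries did not deviate together (correlations of 0.0240, −0.0521 and −0.0479 over all regions, an observation across regions), and control replicates and siRNAs share only a number.

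Regions of knockdown libraries alone numbered 1 with a −log10 q of 5 or more (Ednra, against 0.314% of all regions), with lists of equal length (Edn1, 0.497%) and in the 4 libraries with the most peaks (Ace, 2.44%). They numbered 0 to 1 with 1 library left out, with 1 without knockdown replicate 2 (Ednra, 1.04%), knockdown replicate 3 (Ace, 1.96%) or control replicate 3 (Edn1, 1.29%). Those of control libraries alone stayed at 0, against 0.139% (−log10 q of 5 or more) to 2.7% (4 libraries with the most peaks) of all regions. At these shares a count of 0 says little about the members. Member regions in all libraries numbered 3 at a 50% overlap, with a −log10 q of 5 or more and with lists of equal length. They numbered 0 in gene bodies, 14 with 50 kb flanks, 1 by nearest gene and 9 in the 4 libraries with the most peaks, and 4 to 9 with 1 library left out. Without control replicate 2 there were 9, and the chained region upstream of Agt split. Genes whose counts did not overlap numbered 1 in those 4 libraries (Mas1, with more in knockdown, against 4.67% of protein-coding genes) and 0 to 1 with 1 library left out. There was 1, with more in knockdown, without knockdown replicate 3 (Mas1, 4.08%), control replicate 1 (Ace, 2.93%) or control replicate 3 (Edn1, 3.22%). Fewer libraries have to agree in these settings, which raises such counts by construction. At 2 to 3 tags in the weakest called peaks, a missing peak does not show closed chromatin.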
